A study of Homo sapiens with 6 samples.

Results

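Of 60564 rows with a gene identifier in this RNA sequencing series, 9 were taken by symbol as genes that supply nucleotides for DNA synthesis, and all 9 passed the filter on low counts. They were RRM1 and RRM2 (ribonucleotide reductase), TYMS, TK1 and DTYMK (thymidine nucleotides), DUT and DCTPP1 (pyrophosphatases), DCK (deoxycytidine salvage) and CAD (the start of pyrimidine synthesis). The cells were HepG2, an established line from a human liver tumour, labelled wild type. In 3 libraries the cells had received formononetin, an isoflavone of legumes, during 72 h at 625 of a unit labelled μm. The other 3 libraries were controls whose treatment label names the medium DMEM, with no solvent and no time. All libraries were made from 500 ng of total RNA of cells grown in serum-containing medium, and whether replicates were separate cultures is not stated. The p-values therefore measure library spread alone, which may be technical.

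A cell that copies its genome needs all 4 deoxynucleotides. Ribonucleotide reductase makes deoxynucleotides from ribonucleotides, thymidylate synthase makes the thymine nucleotide with a folate cofactor, and salvage kinases recover deoxynucleosides. Several of these genes are textbook targets of the E2F factors and are transcribed mainly around S phase, so their transcript level follows the share of cycling cells in many tissues and lines. In a bulk sample, more cells in S phase and more transcript per cell cannot be told apart.

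Counts on named genes were 37465148 to 45682722 in formononetin libraries and 30848848 to 36243606 in control libraries. Single counts of the 9 genes ran from 162 (DCK in control replicate 1) to 8613 (CAD in formononetin replicate 3), and intervals from such counts would cover counting error only. All 10 hepatocyte markers examined had counts, with a summed level of 39660 to 41667 CPM (counts per 1000000 in the library) in formononetin libraries and 47393 to 48870 CPM in control libraries. Most of that sum was APOB. HNF4A was higher with formononetin (229, 289 and 247 CPM, against 184, 176 and 187 CPM in control libraries). So was APOA1 (1542, 1490 and 1511 CPM, against 1468, 1337 and 1402 CPM). The other hepatocyte markers were lower in every formononetin library than in any control library. Of markers for other cells, PTPRC and CD3E of white blood cells, HBB of red cells and COL3A1, DCN and LUM of fibroblasts had no counts. Summed levels were 969 to 1048 CPM in formononetin libraries and 1183 to 1278 CPM in control libraries for 6 blood cell markers, nearly all of it LYZ (960 to 1040 CPM in formononetin libraries and 1178 to 1273 CPM in control libraries), while CD68 was at 5.43, 7.93 and 7.07 CPM in formononetin libraries and 3.83, 3.72 and 2.34 CPM in control libraries. They were 41.4 to 44.8 CPM in formononetin libraries and 75.8 to 81.8 CPM in control libraries for 6 fibroblast markers, mostly ACTA2. For 4 cholangiocyte markers they were 383 to 398 CPM in formononetin libraries and 434 to 460 CPM in control libraries. Most of that was SOX9, with CFTR at 0 and KRT7 at no more than 0.23 CPM in any library. Summed levels of 4 endothelial markers, mostly PECAM1, were 24.4 to 29.1 CPM in formononetin libraries and 21.7 to 25.3 CPM in control libraries, which overlap. Their part in the results was not tested. Formononetin and control libraries parted on the leading principal component (38.9% of variance), and control replicate 1 lay away from both other controls on the next (16.5%). Values below are CPM after TMM scaling, given per library or as mean ± SD, and log2 fold changes of formononetin over control ± their standard error with adjusted p from edgeR's quasi-likelihood test over 22230 genes. Each standard error was derived as the absolute log2 fold change over the square root of that test's F statistic.

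All 9 genes rose with formononetin, by 0.22 to 1.0 on the log2 scale with a median of 0.73, against a median of -0.01 over all genes tested. Of all genes tested 20.7% were called, 12.0% as raised and 8.71% as lowered, and raised genes made up 21.5% of the 10468 genes at least as abundant as the least abundant of the 9. The formononetin libraries lay above every control library for all 9 genes, a separation that held for 20.8% of all genes tested. The split of all calls depended on the scaling, with 2659 raised and 1937 lowered here and 1813 raised and 2737 lowered under upper quartile scaling, where 8 of the 9 were raised. The count of raised members was 6 without formononetin replicate 3 or control replicate 3, 7 without formononetin replicate 1 or 2 or control replicate 2, and 9 without control replicate 1.

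**Figure D1:**
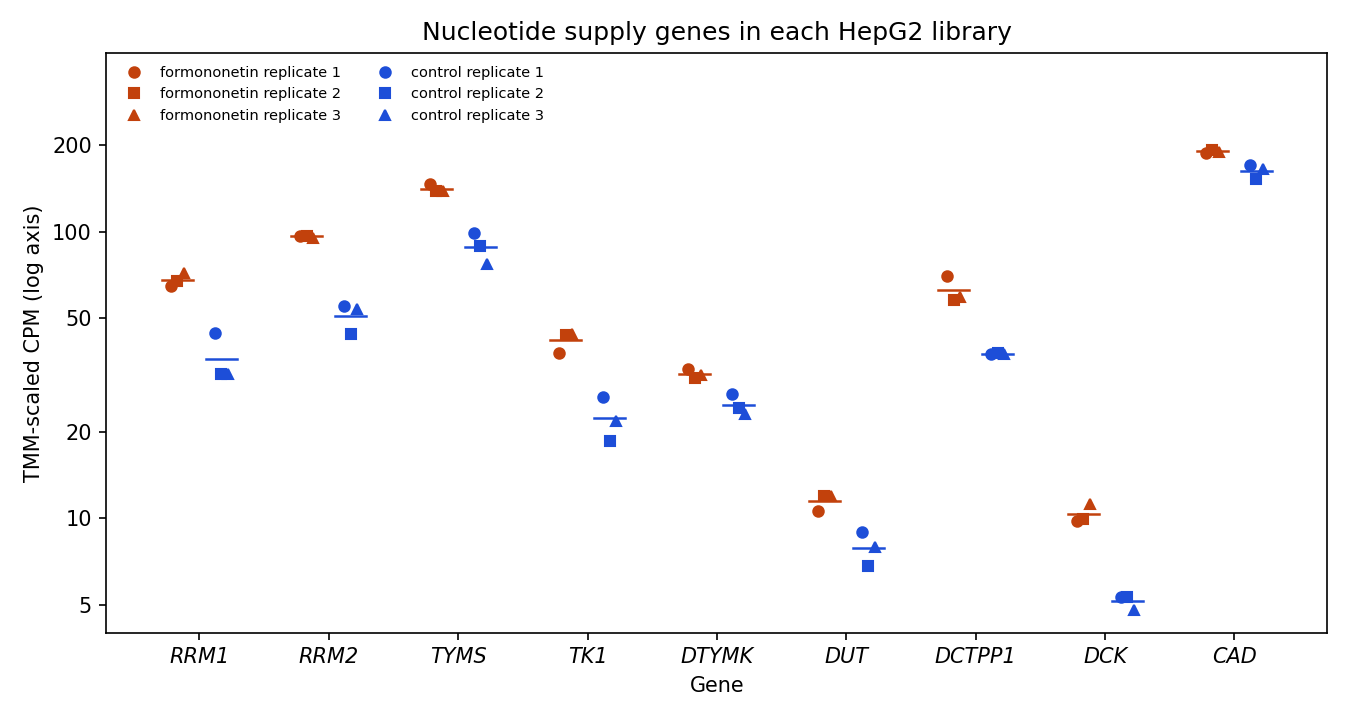
TMM-scaled CPM (log axis) of the 9 nucleotide supply genes, with one symbol per library (orange, formononetin; blue, control) and a horizontal line at each group's mean. All orange symbols of a gene lie above its blue symbols, with the widest relative gap at DCK and the narrowest at CAD.

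As all 9 genes were raised, the RefSeq promoter windows (GRCh38.p14, 250 bases before to 50 after a transcript start) of all 9 were searched on both strands for letters of sites of the E2F factors (TTTCCCGC, TTTGGCGC, TTTGGCGG or TTTCGCGC, of which neighbours can overlap) and for CCAAT, the box that NF-Y binds. The letters of an E2F site were found in a window of 3 of the 9 genes (TYMS, DUT and DCK), against 4.05% of the 27305 genes with a window. CCAAT was found in a window of 5 of the 9 (RRM1, RRM2, TK1, DTYMK and CAD), against 39.7% of those genes. The GC box GGGCGG was also searched for, and was found in a window of 8 of the 9, against 48.3% of those genes. The 9 genes had 14 windows and the 27305 genes had 35116, and more windows give more places for a match. Those genes were not matched to the 9 in GC content or expression, and no excess was tested. A match is a description of letters and not a bound site. The 150 bases before one start of each of 4 genes are shown 5′ to 3′ on the gene's strand. They are examples of E2F letters or CCAAT, and capitals mark those matches in either orientation.
TYMS, chr18:657503-657652, plus strand: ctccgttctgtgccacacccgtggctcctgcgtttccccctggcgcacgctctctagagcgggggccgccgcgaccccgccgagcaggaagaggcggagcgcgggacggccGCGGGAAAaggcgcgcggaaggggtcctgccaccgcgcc
DUT, chr15:48332047-48332196, plus strand: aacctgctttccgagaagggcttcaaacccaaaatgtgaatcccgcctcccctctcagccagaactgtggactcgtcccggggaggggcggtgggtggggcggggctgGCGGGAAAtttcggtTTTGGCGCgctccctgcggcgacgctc
RRM2, chr2:10122589-10122738, plus strand: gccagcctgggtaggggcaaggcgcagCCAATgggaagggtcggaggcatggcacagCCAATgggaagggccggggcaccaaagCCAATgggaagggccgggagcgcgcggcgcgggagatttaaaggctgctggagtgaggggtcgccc
TK1, chr17:78187053-78187202, minus strand: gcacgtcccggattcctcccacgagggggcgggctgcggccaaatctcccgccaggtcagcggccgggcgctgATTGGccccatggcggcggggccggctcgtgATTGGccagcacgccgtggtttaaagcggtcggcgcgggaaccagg
RRM2 holds 3 CCAAT boxes, the nearest 62 bases before the start, and TK1 holds 2 in the opposite orientation (ATTGG). DUT holds 2 E2F matches in this window, which belongs to 1 of 4 annotated starts, and TYMS holds 1. Not shown are DTYMK, which also has 2 CCAAT boxes before its start, and DCK, whose E2F match lies after its start. RRM1 and CAD, each with 1 CCAAT box before the start, are not shown either. RRM2 and TK1 each have another window, with 1 CCAAT box for RRM2 and 0 for TK1.

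Ribonucleotide reductase has a large catalytic subunit, encoded by RRM1, and a small radical-bearing subunit, encoded by RRM2, whose protein is limited to S phase and G2. RRM2 (ENSG00000171848, chromosome 2, 10120698 to 10131419, GRCh38) was at 96.6, 96.7 and 95.5 CPM in formononetin replicates 1 to 3 and at 55.1, 44.0 and 53.7 CPM in control replicates 1 to 3. Its formononetin libraries were nearly equal and the lowest stood 1.73 times above the highest control, a rise of 0.92 ± 0.09 (adjusted p = 0.000657). RRM1 (ENSG00000167325, chromosome 11, 4094707 to 4138876) was at 64.7, 67.2 and 71.6 CPM in formononetin libraries and at 44.4, 32.0 and 31.8 CPM in control libraries. Control replicate 1 was the highest control for RRM1, still below every formononetin library, and the change was 0.91 ± 0.13 (adjusted p = 0.00348). The log2 ratio of RRM2 to RRM1 averaged 0.51 ± 0.08 in formononetin libraries and 0.51 ± 0.23 in control libraries (SD, n = 3 each), and the libraries of both groups overlap.

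RRM2B encodes the other small subunit, which p53 induces and which serves DNA repair and mitochondrial DNA outside S phase. It was at 31.4, 34.2 and 33.8 CPM in formononetin libraries and at 34.4, 32.3 and 33.1 CPM in control libraries, which overlap. Its change was -0.01 ± 0.06 (adjusted p = 0.962), and the sign turned in 6 of 16 alternative settings, with values of -0.08 to 0.04 over all 16. The log2 ratio of RRM2 to RRM2B within each library was 1.62, 1.5 and 1.5 in formononetin libraries and 0.68, 0.45 and 0.70 in control libraries. The difference of 0.93 had an exact permutation p = 0.1 (two-sided), the smallest that 3 against 3 libraries allow. As RRM2 alone already parted the groups and RRM2B was nearly level, this p adds nothing to the result for RRM2.

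The thymidine nucleotide genes cover synthesis (TYMS), salvage (TK1) and the shared next phosphorylation (DTYMK). TYMS, thymidylate synthase, the target of fluoropyrimidine drugs (ENSG00000176890, chromosome 18, 657604 to 673578), was at 146, 138 and 139 CPM in formononetin libraries and at 99.0, 89.1 and 77.3 CPM in control libraries. The groups were well apart, a rise of 0.67 ± 0.09 (adjusted p = 0.00216). TYMS shares 967 exonic bases with ENOSF1 and 183 with TYMSOS on the opposite strand, and the strand setting of the counting is not given in the sources used here. ENOSF1 was at 71.8, 75.5 and 69.3 CPM in formononetin libraries and 69.5, 73.5 and 70.3 CPM in control libraries (0.02 ± 0.05, adjusted p = 0.813), and TYMSOS changed by -0.29 ± 0.11 (adjusted p = 0.11). With both summed into TYMS, the rise was 0.40 ± 0.06 (adjusted p = 0.00279; 1.48e-10 to 0.0118 over the alternatives).

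TK1, the cytosolic thymidine kinase used as a serum marker of proliferation (ENSG00000167900, chromosome 17, 78174075 to 78187233), was at 37.7, 43.7 and 44.0 CPM in formononetin libraries and at 26.6, 18.7 and 21.8 CPM in control libraries. Every formononetin library exceeded the highest control, replicate 1, by at least 1.42 times, and the change was 0.90 ± 0.13 (adjusted p = 0.00366). TK2, the mitochondrial thymidine kinase, was named after its values were seen, at 16.6, 14.3 and 15.9 CPM in formononetin libraries and 14.5, 14.7 and 15.0 CPM in control libraries (0.08 ± 0.08, adjusted p = 0.562). The log2 ratio of TK1 to TK2 averaged 1.42 ± 0.22 in formononetin libraries and 0.58 ± 0.27 in control libraries (SD, n = 3 each). DTYMK, thymidylate kinase (ENSG00000168393, chromosome 2, 241675742 to 241686991), was at 33.3, 31.0 and 31.6 CPM in formononetin libraries and at 27.2, 24.3 and 23.2 CPM in control libraries. Its groups were closer, with a rise of 0.36 ± 0.08 (adjusted p = 0.0174) that was not called without formononetin replicate 1 or 3 or control replicate 2 or 3 (adjusted p 0.00117 to 0.0635 over all alternatives).

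The pyrophosphatases DUT and DCTPP1 keep the pool clean, DUT by splitting dUTP before it enters DNA and DCTPP1 by splitting dCTP and modified forms of it. DCTPP1 (ENSG00000179958, chromosome 16, 30423619 to 30430075) was at 70.2, 57.9 and 59.4 CPM in formononetin libraries and at 37.5, 37.9 and 37.5 CPM in control libraries. Here the controls were nearly equal and formononetin replicate 1 stood above the other formononetin libraries, and the rise was 0.73 ± 0.08 (adjusted p = 0.00113). DCTPP1 shares 666 exonic bases with ZNF771 on the opposite strand, which changed by 0.07 ± 0.12 (adjusted p = 0.717). Counting of DUT was less certain than that of the other members.

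DUT (ENSG00000128951, chromosome 15, 48331011 to 48343373) encodes a nuclear and a mitochondrial form, which counts per gene do not separate. It was at 10.6, 11.96 and 12.01 CPM in formononetin libraries and at 8.95, 6.85 and 7.96 CPM in control libraries, with no overlap and a rise of 0.54 ± 0.12 (adjusted p = 0.0211). Rows of 8 DUT pseudogenes, copies whose reads can resemble those of DUT, held 45 to 74.8% as many counts as DUT itself. Their summed level was 5.43, 5.38 and 6.12 CPM in formononetin libraries and 6.48, 5.00 and 5.96 CPM in control libraries, which overlap. With these rows summed into DUT, an alternative added after the data were seen, the rise was 0.32 ± 0.11 and was no longer called (adjusted p = 0.0859, the highest of 0.00172 to 0.0859 over the alternatives). The call was also lost without formononetin replicate 2 or 3 or control replicate 2 or 3 (adjusted p up to 0.0729). The antisense gene AC023355.1 shares 533 exonic bases with DUT and changed by 0.12 ± 0.15 (adjusted p = 0.636). Pseudogene rows of RRM2 held at most 0.231% as many counts as RRM2, and those of TYMS held none.

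DCK, deoxycytidine kinase, which phosphorylates salvaged deoxynucleosides and activates drugs such as gemcitabine (ENSG00000156136, chromosome 4, 70992538 to 71030914), had the highest fold change of the 9 here, though RRM1 (1.09) and TK1 (1.05) exceeded DCK (1.03) without control replicate 1, and RRM2 and DCK were level (0.96) without control replicate 3. It was at 9.83, 9.96 and 11.2 CPM in formononetin libraries and at 5.33, 5.31 and 4.81 CPM in control libraries. The lowest formononetin library stood 1.84 times above the highest control, a rise of 1.0 ± 0.11 (adjusted p = 0.00105). DCK shares 199 exonic bases with MOB1B on the same strand, a gene at 20.3 to 24.0 CPM in all libraries with a change of 0.08 ± 0.08 (adjusted p = 0.538), and the sum of both rose by 0.30 ± 0.07 (adjusted p = 0.021, the highest over the alternatives, the lowest being 3.18e-10).

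CAD, a single protein with the first 3 enzyme activities of pyrimidine synthesis (ENSG00000084774, chromosome 2, 27217390 to 27243943), was the most abundant of the 9 in CPM and changed least. It was at 188, 193 and 190 CPM in formononetin libraries and at 172, 153 and 165 CPM in control libraries. The libraries did not overlap, but the lowest formononetin library stood only 1.10 times above the highest control, and the rise was 0.22 ± 0.05 (adjusted p = 0.0205). It was not called without formononetin replicate 1, 2 or 3 or control replicate 3, or under upper quartile scaling, where the value was 0.14 (adjusted p 0.00329 to 0.0892 over all alternatives).

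**Figure D2:**
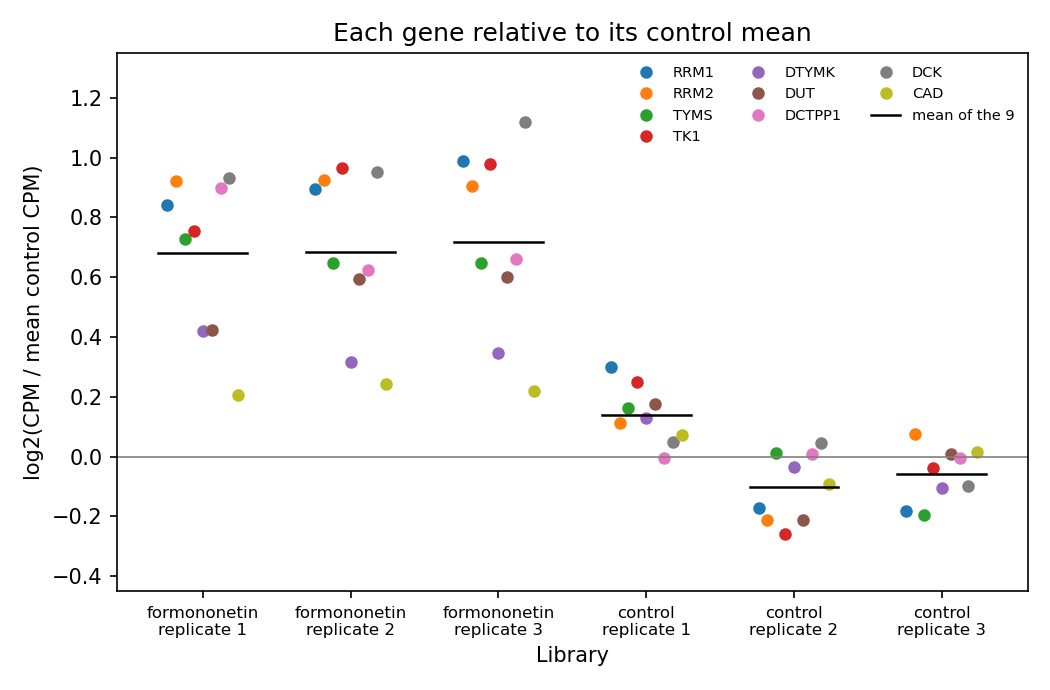
Log2 of each gene's CPM over its mean in control libraries (y axis) in each of the 6 libraries (x axis), with one colour per gene and a black line at the mean of the 9. The black lines lie at 0.68, 0.68 and 0.72 in formononetin libraries and at 0.14, -0.10 and -0.06 in control libraries.

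Control replicate 1 was the highest control for 8 of the 9, all but DCTPP1, and the mean of the 9 relative to their control means was 0.14 there, against -0.10 and -0.06 in control replicates 2 and 3. The lowest control was replicate 2 for 4 genes and replicate 3 for 5. Formononetin libraries were more even in that mean, at 0.68, 0.68 and 0.72. The coefficient of variation was 0.719% in formononetin libraries and 11.9% in control libraries for RRM2, and 5.14% in formononetin libraries and 20.03% in control libraries for RRM1. DCTPP1 and DCK went the other way, with 10.7% in formononetin libraries and 0.574% in control libraries for DCTPP1, and 7.29% in formononetin libraries and 5.73% in control libraries for DCK. How many of all genes tested had control replicate 1 as their highest control was not counted. No explanation of the position of control replicate 1 was tested.

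The summed level of the 9 transcripts was 658, 650 and 654 CPM in formononetin libraries and 476, 411 and 423 CPM in control libraries. Within that sum, CAD made up 29.1% in formononetin libraries and 37.4% in control libraries on average, RRM2 14.7% in formononetin libraries and 11.7% in control libraries, and TYMS 21.6% in formononetin libraries and 20.2% in control libraries. Levels were also taken per kilobase of all annotated exons of a gene joined. That length can exceed the expressed transcript, so the order between genes is approximate. By that measure TYMS was highest at 57.2 ± 1.84 CPM per kilobase in formononetin libraries and 35.8 ± 4.40 in control libraries. DCTPP1 followed at 39.5 ± 4.22 in formononetin libraries and 23.8 ± 0.137 in control libraries, separate from TYMS and from CAD in both groups. In formononetin libraries CAD (22.6 ± 0.288) and TK1 (22.5 ± 1.91) overlapped, and RRM2 (18.1 ± 0.13), RRM1 (16.2 ± 0.836) and DTYMK (13.0 ± 0.489) came next in that order with no overlap between neighbours. In control libraries CAD (19.4 ± 1.11) was apart from TK1 (12.01 ± 2.14), while TK1, DTYMK (10.2 ± 0.852), RRM2 (9.57 ± 1.13) and RRM1 (8.64 ± 1.73) overlapped neighbour by neighbour. DCK and DUT were lowest, overlapping at 3.20 ± 0.233 and 3.14 ± 0.214 in formononetin libraries, with DUT above DCK (2.16 ± 0.287 and 1.60 ± 0.0915) in control libraries. The level of DUT leaves out the counts on its pseudogene rows.

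Folate enzymes feed thymidylate synthase with its cofactor. Of 16 folate and one-carbon genes, 7 rose and none fell (median 0.14). Beside this count and those of the lists below stand shares of 12.0% raised and 8.71% lowered over all genes tested. The mitochondrial enzymes SHMT2, at 257 ± 7.34 CPM in formononetin libraries and 243 ± 11.9 CPM in control libraries, and MTHFD2, at 297 ± 7.89 CPM in formononetin libraries and 297 ± 32.5 CPM in control libraries, were not called (0.08 ± 0.05, adjusted p = 0.307, and -0.0031 ± 0.08, adjusted p = 0.983). Their cytosolic counterparts SHMT1 and MTHFD1, named after their values were seen, rose by 0.54 ± 0.08 (adjusted p = 0.00396) and 0.57 ± 0.06 (adjusted p = 0.000883), while the difference between counterparts was not tested. The largest rise in the list was that of the mitochondrial enzyme ALDH1L2, which oxidises formyltetrahydrofolate (0.93 ± 0.16, adjusted p = 0.0069), followed by its cytosolic relative ALDH1L1 (0.73 ± 0.10, adjusted p = 0.00245) and by GGH, which trims the glutamate tail of folates (0.60 ± 0.07, adjusted p = 0.00158).

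**Figure D3:**
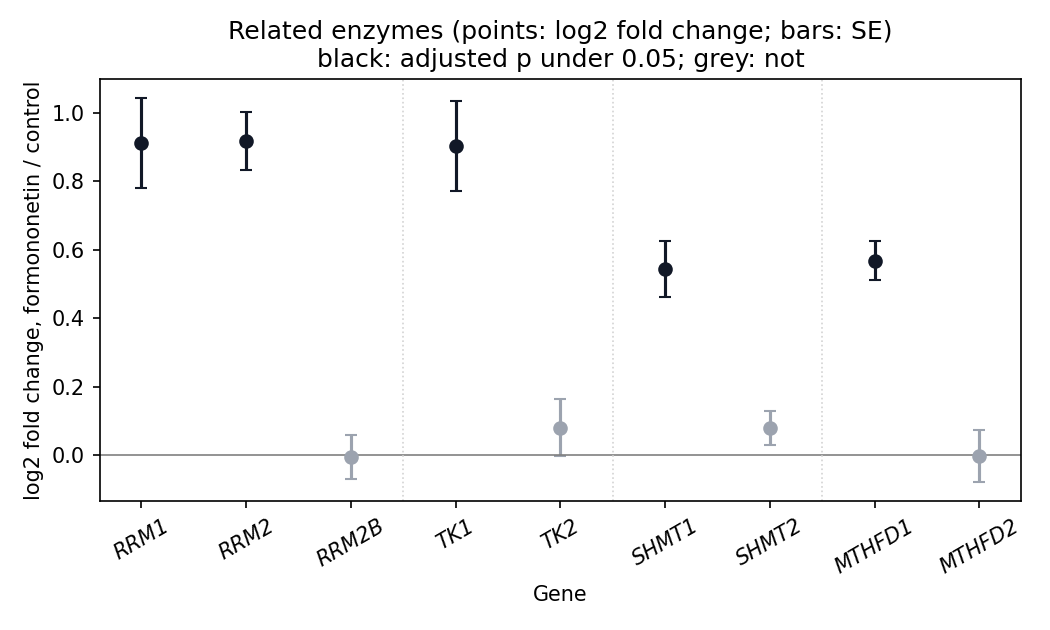
Log2 fold change of formononetin over control (y axis, bars are standard errors) for related enzymes (x axis), with dotted lines between families, black for adjusted p under 0.05 and grey otherwise. RRM1, RRM2, TK1, SHMT1 and MTHFD1 lie between 0.54 and 0.92, and RRM2B, TK2, SHMT2 and MTHFD2 between -0.01 and 0.08. TK2, SHMT1 and MTHFD1 were chosen after their values were seen, so the split reflects that choice. Other related pairs are not drawn, and in some both rose, as ALDH1L1 (0.73) with ALDH1L2 (0.93) and PRPS1 (0.68) with PRPS2 (0.60).

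Past CAD, pyrimidine synthesis needs DHODH, UMPS and the CTP synthases. Of 5 tested genes 2 rose and none fell (median 0.13): CTPS1, which makes CTP, by 0.35 ± 0.05 (adjusted p = 0.00466) and UMPS, which makes UMP, by 0.34 ± 0.05 (adjusted p = 0.00454). DHODH, the mitochondrial step, was at 9.25, 10.4 and 8.43 CPM in formononetin libraries and 7.99, 9.44 and 10.1 CPM in control libraries, overlapping (0.03 ± 0.13, adjusted p = 0.917). Among 13 purine synthesis genes 8 rose and none fell (median 0.26), led by PRPS1 and PRPS2, which make the ribose donor (0.68 ± 0.08, adjusted p = 0.0014, and 0.60 ± 0.14, adjusted p = 0.0239), and by IMPDH1, on the branch to GMP (0.54 ± 0.10, adjusted p = 0.00795). The call of PRPS2 was lost without formononetin replicate 3 or control replicate 2 or 3 (adjusted p 0.000738 to 0.0787 over all alternatives), and raised purine genes numbered 5 without formononetin replicate 3.

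Among 18 other salvage and nucleotide kinase genes 6 rose and 1 fell (median 0.21). UCK2, which phosphorylates uridine and cytidine, rose by 0.49 ± 0.13 (adjusted p = 0.0398), NME1, a nucleoside diphosphate kinase that may share reads with its close copy NME2, by 0.45 ± 0.06 (adjusted p = 0.00202) and ADK, adenosine kinase, by 0.45 ± 0.07 (adjusted p = 0.00555). UCKL1 fell by 0.25 on the log2 scale (SE 0.04, adjusted p = 0.00781). The call of UCK2 was lost without formononetin replicate 1, 2 or 3 or control replicate 3 and in 3 other settings (adjusted p 0.00197 to 0.112 over all alternatives), and with control replicate 3 left out, or with upper quartile scaling, 3 genes of this list were raised.

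Genes that remove or break down nucleotides moved both ways, with 5 of 18 tested raised and 2 lowered (median 0.09). Over all genes tested the shares were 12.0% raised and 8.71% lowered, with 21.5% raised among the 10468 at least as abundant as the least abundant member. Genes of this list were not held to that abundance, and some of its raised genes lay below it. No excess over these shares was tested. SAMHD1, which hydrolyses deoxynucleotides outside S phase, was at 57.2, 60.0 and 57.8 CPM in formononetin libraries and 49.3, 43.2 and 45.3 CPM in control libraries, a rise of 0.34 ± 0.06 (adjusted p = 0.00906). PNP, which cleaves purine nucleosides, rose by 0.64 ± 0.07 (adjusted p = 0.000983). NT5E, the cell surface nucleotidase CD73, was at 28.0, 24.7 and 29.6 CPM in formononetin libraries and 53.2, 56.5 and 53.9 CPM in control libraries, far apart and lower with formononetin (-0.99 ± 0.08, adjusted p = 0.000369). NT5C2, a cytosolic nucleotidase, changed by -0.59 ± 0.13 (adjusted p = 0.0169), a call lost without formononetin replicate 1 or 3 or control replicate 2 (adjusted p 0.000106 to 0.0586 over all alternatives). Raised genes of this list numbered 3 without control replicate 1 or 2, and 1 was lowered without formononetin replicate 1 or 3 or control replicate 2.

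Of 5 tested nucleoside transporter genes 2 rose and 1 fell (median 0.40). The raised genes include SLC28A1, named after its values were seen (2.6 ± 0.28, adjusted p = 0.0011). It was near the floor, with 75, 53 and 68 counts in formononetin libraries and 6, 8 and 12 in control libraries. The equilibrative transporter SLC29A1 was at 47.2, 55.5 and 48.2 CPM in formononetin libraries and 34.6, 38.2 and 41.5 CPM in control libraries, a rise of 0.40 ± 0.09 (adjusted p = 0.0217), while its relative SLC29A2 was at 11.8, 11.5 and 10.3 CPM in formononetin libraries and 17.2, 16.8 and 21.1 CPM in control libraries (-0.72 ± 0.11, adjusted p = 0.00508). The call of SLC29A1 was lost without formononetin replicate 2 or 3 or control replicate 1 or 2 (adjusted p 0.00101 to 0.0638 over all alternatives), and 1 transporter was then raised. Over all 76 tested genes of these lists and RRM2B, 30 rose and 4 fell, with a median of 0.21. Of all genes tested 12.0% were raised and 8.71% lowered. Raised genes made up 21.5% of the 10468 genes at least as abundant as the least abundant member. The 76 genes were not held to that abundance, and no excess over these shares was tested.

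**Figure D4:**
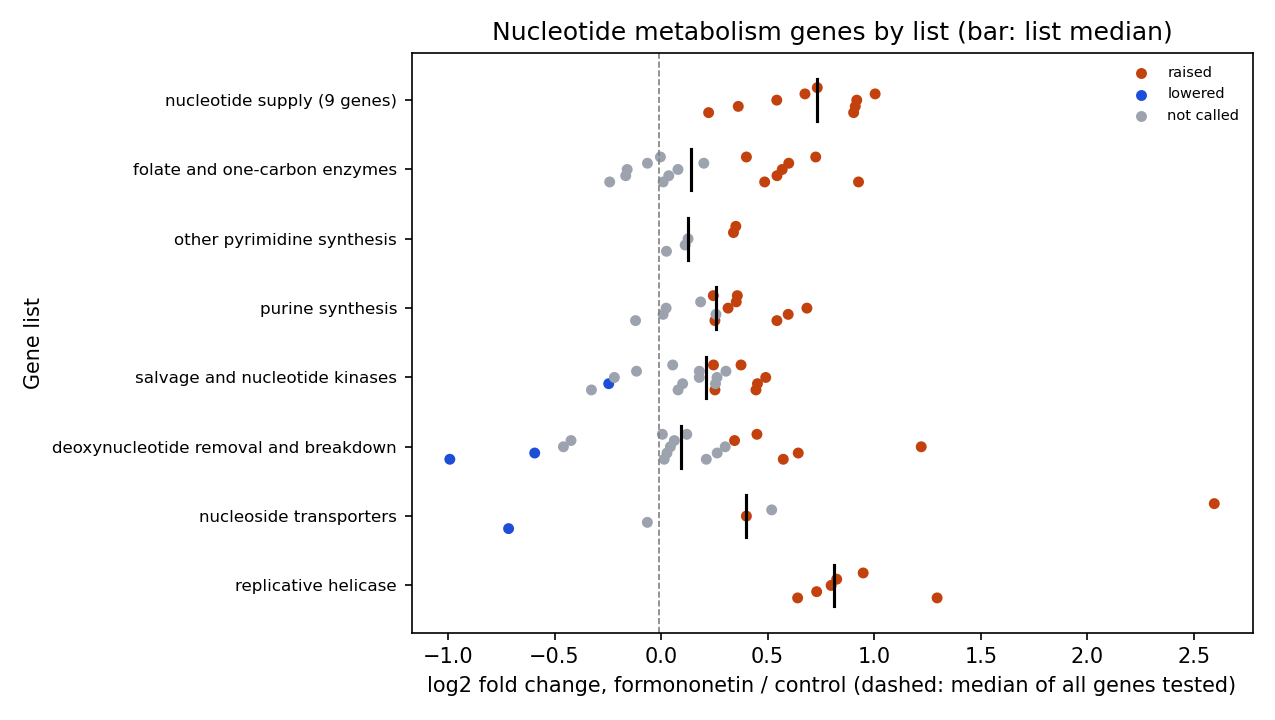
Log2 fold change of formononetin over control (x axis) for each tested gene of the nucleotide metabolism lists and of the replicative helicase (rows), coloured by call, with a black bar at each list's median and a dashed line at the median of all genes tested. The medians are 0.73 for the 9 nucleotide supply genes, 0.81 for the helicase and 0.09 to 0.40 for the other lists.

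Beside these, the 6 genes of the replicative helicase, MCM2 to MCM7, which unwinds DNA at the fork, were all raised, by 0.64 to 1.3 with a median of 0.81, and their part in the result was not tested. The likeness of other genes to the 9 was measured as the root mean square difference in log2 CPM over the 6 libraries. Each gene was centred on its own mean, and the candidates were 8635 genes whose mean log2 CPM was at least 3. Clone-type symbols, symbols with a hyphen or dot, and symbols ending in P or in P and digits had been left out. That rule was meant for clone, readthrough and pseudogene names but also dropped genes such as PNP, so nearer genes may be missing. Nearest to the mean profile of the 9 were ACLY (0.0199), NCAPG (0.0291), MCM3 (0.033), SLC16A13 (0.034) and CRLS1 (0.0342). ACLY makes cytosolic acetyl-CoA, NCAPG is a condensin subunit, MCM3 belongs to the helicase, SLC16A13 is a monocarboxylate transporter family member and CRLS1 makes cardiolipin. Nearest to RRM2 alone were TOR3A (0.0532), RFC2 (0.0536), SLC43A2 (0.0567), SLC27A2 (0.0571) and HMOX1 (0.0626), of which RFC2 is a subunit of the clamp loader of replication and HMOX1 is haem oxygenase. They share with RRM2 the same 6 libraries and the same scaling.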

How the data were processed

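The authors deposited 1 table of whole-number raw counts per gene for 3 formononetin and 3 control libraries. Per the submitters' processing notes, GRCh38, STAR 2.5.3a and StringTie 1.3.1c were used, with no role given, and per the labels' protocols a stranded mRNA kit. No source used here names the counter, its strand setting or its annotation. Of 62729 rows, 2165 assembled loci without a gene name (3.82 to 5.62% of counts) were left out. Symbols matched 60295 identifiers, and coordinates and exon lengths came from GENCODE 29. No replicate was a copy of another (chi-square over degrees of freedom 13.5 to 34.6 within groups). Genes were filtered with filterByExpr (22230 kept), scaled with TMM and tested with edgeR 4.0.16 in R 4.3.3 (glmQLFit and glmQLFTest, group only, two-sided, Benjamini-Hochberg adjustment, threshold 0.05), a fit tested on simulated data. Alternatives used DESeq2 1.42.0, limma 3.58.1 (voom), other scalings and filters, the replicate number as a block, the assembled loci, sums over overlapping genes or pseudogenes, and leaving out each library.

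The members and lists were chosen with earlier results of these data known. Text names the members, a few fixed genes, up to 3 raised and 2 lowered genes per list whose mean log2 CPM was at least 3, genes whose exons overlap a member's, and the 5 genes nearest in profile. RRM1-AS1 had at most 5 counts in a library and was not tested, and a gene model overlapping RRM2 was not analysed here. A few genes that this rule names are not reported here.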

Additional observations from a re-analysis of the deposited data

How the results depend on the processing

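The 9 genes kept a positive log2 fold change in all 162 combinations of gene and alternative, and 146 kept the call. The 16 losses were of CAD, DUT and DTYMK. Raised members numbered 6 to 9 when 1 library was left out, 7 with a replicate block (DUT, adjusted p = 0.0604, and CAD, adjusted p = 0.0548, were not called), 8 under upper quartile scaling or with pseudogenes summed, and 9 in the other settings. No call of the other 6 members was lost. Same-numbered libraries did not deviate together (correlations of deviations -0.02 to 0.01), so the numbers are not taken to pair samples. With the block, 3283 genes were called against 4596, and 3 salvage kinase genes and 3 breakdown genes were raised. Leaving out 1 library gave 3049 to 3667 genes called, 1703 to 2189 raised and 1272 to 1478 lowered. It gave 5 to 7 raised purine genes, 3 to 5 raised salvage genes, 3 to 4 raised and 1 to 2 lowered breakdown genes, and 1 to 2 raised transporters. Under upper quartile scaling 3 salvage genes were raised and 2 lowered, 1 purine gene was lowered, and the summed CPM of the 9 exceeded control by 188 against 217. With a filter of 1 CPM in 3 libraries 2 salvage genes were lowered. The uncalled log2 fold change of RRM2B turned to 0.0086 with DESeq2, 0.036 with library totals, 0.017 without a low-count filter and 0.0074 with assembled loci, and was -0.029 to 0.028 without 1 library. That of MTHFD2 turned to 0.011, 0.040, 0.019 and 0.010 in those 4 settings and 0.0022 with the block, and was -0.073 to 0.084 without 1 library. That of DHODH turned to -0.054 under upper quartile scaling and was -0.064 to 0.10 without 1 library. The cause of these differences was not tested. Summing in genes that changed less lowers a fold change whether or not reads were shared, so those alternatives do not test it either. The difference in the RRM2 to RRM2B log2 ratio was 0.85 to 0.98 without 1 library. With 3 libraries a group, groups of this size were not tested for outlying samples.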
